A study of Mus musculus with 4 samples.

Results

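Semaphorins, plexins and neuropilins are the ligands and receptors of a signalling family first known for steering growing axons. The members were chosen by symbol: Nrp1, Nrp2, every gene whose symbol starts with Plxn, and every gene whose symbol starts with Sema and a digit. This gave 32 of the 24625 genes measured, namely 20 semaphorin genes, 9 plexin genes, 2 neuropilin genes and the noncoding antisense gene Plxna4os1. No count entered the choice of members, but the family was picked for description with earlier results of this diet contrast known. The diet differences below are therefore a description of these libraries.

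RNA came from macrophages of the peritoneal cavity of C57BL/6 mice that received either the control diet, a standard chow, or a high-fat diet with 60% of its energy from fat, in both cases for 12 weeks. All mice, controls included, were injected in the peritoneal cavity with 3% thioglycollate medium, an irritant that recruits macrophages, and the cells were taken 4 days later. Each diet had 2 libraries of total RNA freed of ribosomal RNA, and nothing in the labels ties a library to a mouse or a pool of mice, so p-values measure only the spread between these libraries, which may be technical. The macrophage genes Lyz2 and Cd68 stood at 21298 ± 559 and 853 ± 73.1 FPKM with control diet and 17689 ± 3074 and 938 ± 79.1 FPKM with high-fat diet (SD, n = 2). CPM is the count scaled to the library total, adjusted by TMM normalization factors, and is used for 1 gene across libraries. FPKM is CPM per kilobase of exon and is used wherever genes are compared with each other.

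Semaphorins are secreted (class 3), held in the membrane by a transmembrane segment (classes 4, 5 and 6) or tied to it by a lipid anchor (class 7). Plexins are the receptors that carry the signal across the membrane, and their cytoplasmic part acts on small GTPases and through them on the cytoskeleton and on adhesion. Most class 3 semaphorins first bind a neuropilin, which forms a complex with a plexin and also binds growth factors of the VEGF family. In immune cells the family is known for roles in cell migration, in contacts between T cells and antigen-presenting cells and in activation of macrophages and dendritic cells.

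A member was called expressed when it passed the filter of edgeR's filterByExpr, which here asked for about 0.249 CPM in at least 2 libraries. Of the 32 members 20 passed, each of them in all 4 libraries: 10 of 20 semaphorins, both neuropilins, 7 of 9 plexins and Plxna4os1. With a mean of at least 1 FPKM as the rule, 11 members were expressed. The 12 members that did not pass had at most 28 counts over the 4 libraries together. They were Sema3b, Sema3d, Sema3e, Sema3f, Sema3g, Sema4f, Sema4g, Sema5b, Sema6a, Sema6c, Plxnb1 and Plxnb3. Sema5b and Sema6a had 0 counts in every library, which allows a level of up to 0.0181 CPM over all libraries together by counting error only.

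Receptor transcripts outweighed ligand transcripts per length. Summed over all 20 semaphorin genes the level was 40.8 and 37.2 FPKM with control diet and 25.2 and 23.0 FPKM with high-fat diet. Neuropilins summed to 163 and 146 FPKM with control diet and to 130 and 138 FPKM with high-fat diet. The 9 plexins summed to 63.2 and 54.8 FPKM with control diet and to 43.0 and 38.8 FPKM with high-fat diet. In each of these sums both high-fat libraries lay below both control libraries. These are bulk libraries, so fewer cells of a type and less RNA per cell cannot be told apart.

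**Figure D1:**
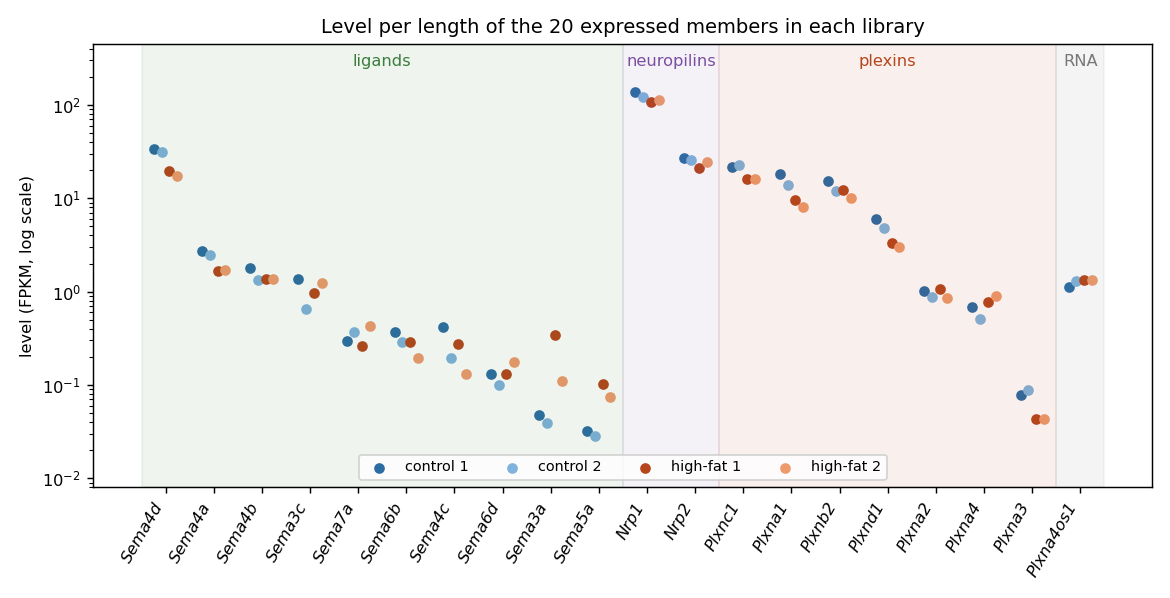
Level per length (FPKM, log scale) of the 20 expressed members, with 1 point per library; shading marks ligands, neuropilins, plexins and the antisense RNA. Nrp1 stood highest in every library, Sema4d was the most abundant ligand, and Sema3a and Sema5a lay near the lower end with their high-fat points above their control points.

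Across the 20 expressed members, 12 had a log2 fold change below 0 and 8 above 0, where fold changes are high-fat over control. The median was -0.21, beside -0.0054 over all 12747 genes tested. 3 genes fell by edgeR's quasi-likelihood test with p adjusted over all genes by Benjamini-Hochberg, namely the ligand Sema4d and the receptors Plxna1 and Plxnd1, and 0 members rose. At an unadjusted p under 0.05 there were 9 members, beside 17% of all genes, and DESeq2 called 5, adding Plxnc1 as lower and Sema3a as higher, beside 2.87% of all genes. Of all genes tested 0.612% were called, 0.29% as lower and 0.322% as higher, and since the family was picked with this contrast known nothing is read from the comparison of these shares. In 8 members both high-fat libraries lay below both control libraries and in 5 they lay above, while 51% of all genes were separated between the diets, 24.9% lower and 26.1% higher. Without control replicate 1 the number of called members went from 3 to 0 and that of all called genes from 78 to 15 (0.114%). Without control replicate 2 there were again 3 members, of 18 called genes (0.136%). Without high-fat replicate 1 the members called were 5, of 831 called genes (6.37%), and without high-fat replicate 2 they were 6, of 500 called genes (3.81%).

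**Figure D2:**
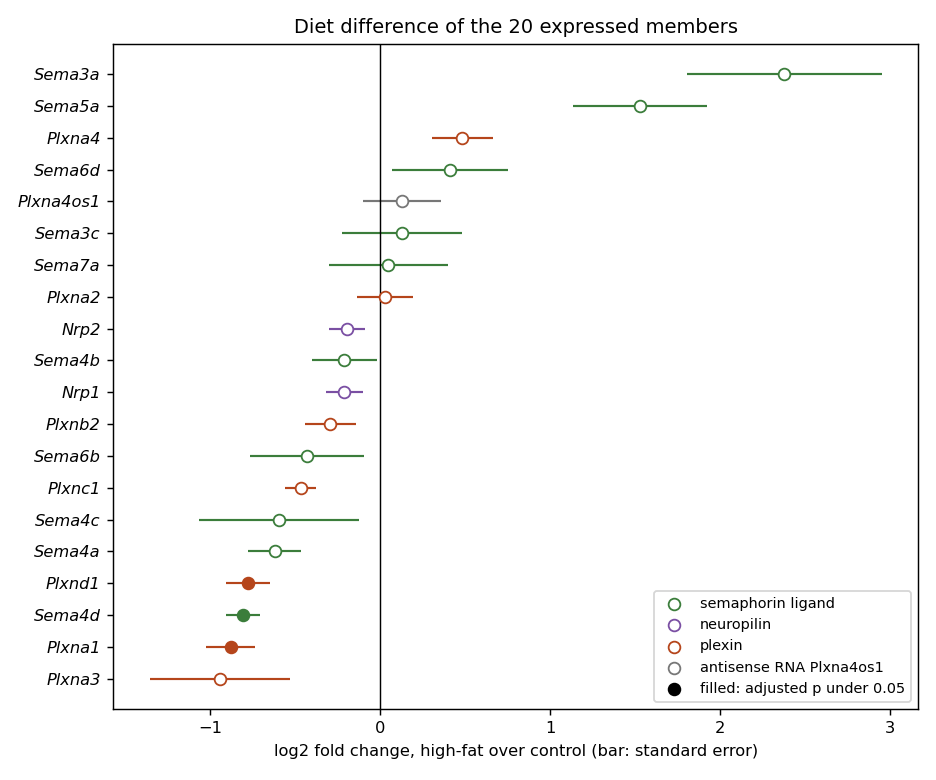
Log2 fold change (high-fat over control) with its standard error for the 20 expressed members, coloured by role; filled points passed an adjusted p of 0.05. Sema4d, Plxna1 and Plxnd1 are the filled points, at -0.81, -0.88 and -0.78. Sema3a and Sema5a lie farthest to the right at 2.38 and 1.53, with standard errors of 0.57 and 0.39.

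Among the ligands, class 4 semaphorins made up 38.5 and 35.7 FPKM of the sum with control diet and 23.0 and 20.7 FPKM with high-fat diet, and Sema4d, also known as CD100, was the main one. Sema4d encodes a transmembrane semaphorin that can be shed from the cell surface and that binds plexin B1, plexin B2 and, on lymphocytes, CD72. Its gene model lies on the minus strand of chromosome 13 from 51796617 to 51889116 (mm9) with 17 exon blocks. The level was 152 and 144 CPM with control diet and 89.7 and 79.4 CPM with high-fat diet. Both high-fat libraries were lower than both control libraries, with replicates of 1 diet closer to each other than to the other diet. Sema4d fell from 148 ± 6.11 to 84.5 ± 7.29 CPM (SD, n = 2 per diet), a 1.75-fold lower level, or -0.81 ± 0.10 (SE) on the log2 scale at an adjusted p of 0.0165 by edgeR. It passed in 11 of 12 alternative fits and missed the threshold without control replicate 1, at -0.78 with an adjusted p of 0.0671.

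Sema4d held most of the ligand level per length in every library, at 82.2% and 85.1% of the semaphorin sum with control diet and 78.4% and 76.0% with high-fat diet. Lymphocytes also express Sema4d, and lymphocyte markers differed between the libraries. Summed B cell markers were 52.3 and 47.2 FPKM with control diet and 47.2 and 103 FPKM with high-fat diet, and summed T and NK cell markers were 4.44 and 6.59 FPKM against 3.51 and 17.0 FPKM. Both sums were highest in high-fat replicate 2, though single markers differed from the sums: Cd22 had 59.8 and 53.1 CPM with control diet and 48.2 and 40.9 CPM with high-fat diet. The part of lymphocytes in the level of Sema4d was not tested.

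The other class 4 semaphorins were present at far lower levels. Sema4a, a transmembrane ligand that binds plexin D1 and TIM-2 and is known from dendritic cells and T cell priming, stood at 9.29 and 8.50 CPM with control diet and at 5.73 and 5.83 CPM with high-fat diet. The diets did not overlap, and the log2 fold change of -0.62 ± 0.16 missed the threshold over all genes (adjusted p = 0.109). Sema4b, another transmembrane ligand, had 7.13 and 5.28 CPM against 5.32 and 5.41 CPM, so that control replicate 2 lay below both high-fat libraries (-0.21 ± 0.19). Sema4c, a ligand of plexin B2, had 1.59 and 0.747 CPM with control diet and 1.03 and 0.501 CPM with high-fat diet. Replicate 1 lay above replicate 2 in both diets, the libraries of the diets overlapped, and the difference was -0.59 ± 0.47. The 4 expressed class 4 genes all had log2 fold changes below 0, though those of Sema4b and Sema4c turned to 0.011 and 0.034 without control replicate 1.

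Class 3 semaphorins, the secreted ligands that act through neuropilins, were scarce next to their receptors. Sema3c, which binds both neuropilins, was the most abundant at 6.81 and 3.19 CPM with control diet and 4.76 and 6.18 CPM with high-fat diet. The control libraries differed by more than the diets did, and both high-fat libraries lay between them (log2 fold change 0.13 ± 0.35). Sema3a, the founding repulsive semaphorin, which binds Nrp1 and signals with class A plexins, had 14 and 11 counts with control diet against 115 and 32 with high-fat diet. In CPM this was 0.348 and 0.283 against 2.48 and 0.801, and the 2 high-fat libraries differed from each other by far more than the control libraries did. The log2 fold change of 2.38 ± 0.57 was the highest among the members and missed the threshold (adjusted p = 0.112 by edgeR). Without high-fat replicate 1 it was 1.33 and without high-fat replicate 2 it was 2.96, which passed.

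Class 3 genes that did not pass the filter were near the limit of detection. Sema3d had 3 and 1 counts with control diet and 10 and 7 with high-fat diet. Sema3e, the class 3 semaphorin that binds plexin D1 without a neuropilin, had 4 and 3 against 10 and 11 counts. Sema3b, Sema3f and Sema3g never exceeded 4 counts in a library. The genes Sema3d, Sema3a, Sema3e and Sema3c lie in this order within 4.85 Mb of chromosome 5, from 12383166 to 17236085 (mm9). Of the 16 other gene models in this stretch only 2 passed the filter, Cacna2d1 and the growth factor gene Hgf (-0.28), and neither was called. Cacna2d1, a calcium channel subunit, had 6 and 4 counts in control and 32 and 14 in high-fat libraries (log2 fold change 2.03). It passed the filter only through the high-fat libraries, so its direction was set by the filter.

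Sema5a, a transmembrane ligand with thrombospondin repeats, had 14 and 12 counts with control diet against 51 and 32 with high-fat diet, or 0.348 and 0.309 against 1.10 and 0.801 CPM. Both high-fat libraries were above both control libraries, with a log2 fold change of 1.53 ± 0.39 that missed the threshold (adjusted p = 0.115); without high-fat replicate 2 it passed at 1.73. Markers of mesothelial cells and fibroblasts, which line and support the peritoneum, were read in the same libraries beside Sema3a and Sema5a. Of 16 such markers 13 passed the filter, led by Dcn and Col3a1. All 13 lay above 0 on the log2 scale (median 2.15) and 1, Lum, passed the test. Lum, Wt1, Lrrn4 and Bnc1 were below the filter's cutoff in both control libraries and passed it only through the high-fat libraries. Their direction was therefore set by the filter, and Lum had 8 and 9 counts against 83 and 47. Msln and Pdgfrb overlapped between the diets, and Krt8 and Krt19 overlapped and did not pass the filter. The summed level of the list was 7.90 and 11.2 FPKM with control diet and 58.4 and 31.1 FPKM with high-fat diet, most of it Dcn. Dcn alone had 5.23 and 8.76 FPKM against 39.3 and 22.9 FPKM. High-fat replicate 1 was the highest library for this sum, for Sema3a and for Sema5a. The part of mesothelial cells and fibroblasts in the levels of Sema3a and Sema5a was not tested.

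The remaining ligands differed between the diets by no more than 0.43 on the log2 scale, with standard errors from 0.33 to 0.35. Sema6b, a transmembrane ligand of class A plexins, had 1.47 and 1.13 CPM with control diet and 1.14 and 0.776 CPM with high-fat diet, with ranges that overlapped by a narrow margin. Sema6d, which binds plexin A1 together with TREM2 and its adaptor in dendritic cells and osteoclasts, had 0.944 and 0.721 against 0.948 and 1.28 CPM, with control replicate 1 just below high-fat replicate 1. Sema7a, the lipid-anchored ligand that acts on plexin C1 and on beta-1 integrins, had 0.969 and 1.21 CPM with control diet and 0.862 and 1.40 CPM with high-fat diet, and the high-fat libraries lay on either side of the control libraries.

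**Figure D3:**
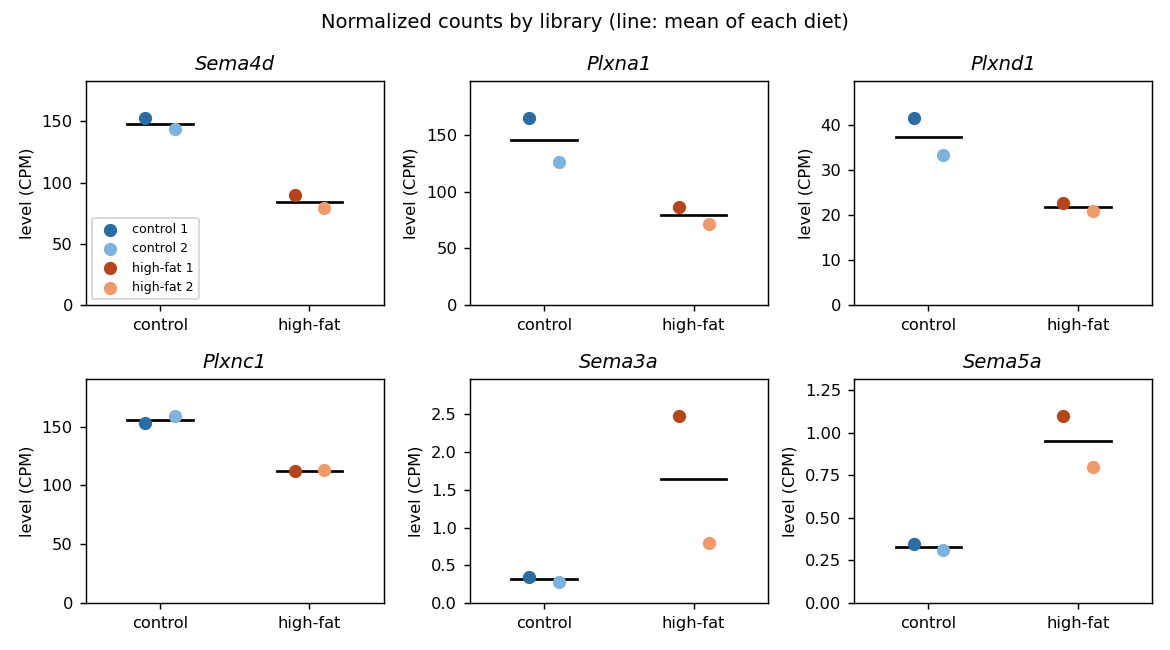
Level in CPM of 6 members, with 1 point per library and a line at the mean of each diet; every axis starts at 0. In Sema4d, Plxna1, Plxnd1 and Plxnc1 both high-fat points lie below both control points, and in Sema3a the high-fat points are far apart, at 2.48 and 0.801 CPM.

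Nrp1 was the most abundant gene of the family. It encodes neuropilin 1, the shared receptor for class 3 semaphorins and VEGF-A, and ranked by mean FPKM over the 4 libraries it was number 613 of 12747 genes, ahead of Sema4d (2498), Nrp2 (2570) and Plxnc1 (3093). The gene lies on chromosome 8 from 130882973 to 131029375 (mm9, plus strand, 17 exon blocks), where 80 exonic bases are shared with the microRNA gene Mir1903. Nrp1 had 805 and 716 CPM with control diet and 643 and 671 CPM with high-fat diet. The diets did not overlap, but the log2 fold change of -0.21 ± 0.11 missed the threshold (adjusted p = 0.366) and the control libraries were farther apart than the nearest libraries of the 2 diets.

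Nrp2, the second neuropilin, which also binds VEGF-C, had 222 and 207 CPM with control diet and 173 and 201 CPM with high-fat diet. The margin between control replicate 2 and high-fat replicate 2 was small, and the log2 fold change was -0.20 ± 0.11 (adjusted p = 0.377). Nrp1 exceeded Nrp2 per length by 4.99 and 4.75 times with control diet and by 5.11 and 4.58 times with high-fat diet, so the ratio of the neuropilins overlapped between the diets. Endothelial cells also express both neuropilins; among 10 endothelial markers Emcn, Cldn5 and Robo4 had 0 counts in every library, Cdh5 had between 9 and 13 counts, and only Cdh5, Pecam1 and Vwf passed the filter. Vwf had 39.0 and 26.7 CPM with control diet and 27.7 and 18.9 CPM with high-fat diet, and the summed level of the list was 5.44 and 3.98 against 4.19 and 4.21 FPKM. The part of endothelial cells in the neuropilin levels was not tested.

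Plexins of all 4 classes were expressed, and 4 genes, Plxnc1, Plxna1, Plxnb2 and Plxnd1, made up most of the plexin level. Plxna1 encodes plexin A1, which signals for class 3 semaphorins with a neuropilin and for class 6 semaphorins directly. The gene spans 89266308 to 89312607 on chromosome 6 (mm9, minus strand, 32 exon blocks). It had 164 and 126 CPM with control diet and 86.1 and 71.9 CPM with high-fat diet, without overlap between the diets. Plxna1 fell from 16.1 ± 2.97 to 8.75 ± 1.11 FPKM, 1.84-fold lower, or -0.88 ± 0.14 on the log2 scale at an adjusted p of 0.0456 by edgeR. This value lies close to the threshold: it was 0.134 without control replicate 1, 0.0669 by limma-voom and 0.0519 with a filter at 1 CPM in 2 libraries.

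None of the other class A plexins passed the threshold, and their values differed in sign. Plxna2 had 11.1 and 9.61 CPM with control diet and 11.7 and 9.39 CPM with high-fat diet (log2 fold change 0.026 ± 0.16). Plxna4, a receptor for Sema3a and class 6 semaphorins, had 8.60 and 6.44 CPM against 9.80 and 11.2 CPM, higher in both high-fat libraries, with a difference of 0.48 ± 0.18 (adjusted p = 0.231). Plxna3 lay at 0.547 and 0.618 CPM with control diet and 0.302 and 0.300 CPM with high-fat diet, from 12 to 24 counts a library (-0.94 ± 0.41, adjusted p = 0.287).

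Ratios within a library do not depend on how libraries are scaled. Plxna1 exceeded Plxna4 per length by 26.7 and 27.4 times with control diet and by 12.2 and 8.94 times with high-fat diet. Plxna1 over Plxna2 was 18.1 and 16.1 against 8.98 and 9.37. Plxna4os1, a noncoding gene of 2 exons on the opposite strand inside the span of Plxna4, had 2.16 and 2.47 CPM with control diet and 2.54 and 2.53 CPM with high-fat diet (0.13 ± 0.23). Its exons do not overlap those of Plxna4, yet no source used here says that reads were counted by strand, so reads from Plxna4 introns could fall on it.

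Plxnd1 encodes plexin D1, the receptor of Sema3e and Sema4a, known from blood vessels and from thymocyte migration. The gene lies on chromosome 6 from 115904829 to 115945023 (mm9, minus strand, 36 exon blocks). It had 41.6 and 33.5 CPM with control diet and 22.8 and 20.9 CPM with high-fat diet, again without overlap. Plxnd1 fell from 37.5 ± 5.73 to 21.8 ± 1.34 CPM, 1.72-fold lower, or -0.78 ± 0.13 on the log2 scale at an adjusted p of 0.0434 by edgeR. Its call ended without control replicate 1 (adjusted p = 0.143), by limma-voom (0.0735), with the CPM filter (0.0519) and without robust fitting (0.0546).

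Plxnc1, the receptor of Sema7a, was the most abundant plexin per length in every library. It had 153 and 159 CPM with control diet and 112 and 113 CPM with high-fat diet and the libraries of the diets did not overlap. The log2 fold change of -0.47 ± 0.09 missed the threshold by a small margin (adjusted p = 0.0602 by edgeR) and passed in 4 of 12 alternative fits, among them DESeq2. Plxnb2, the main class B plexin and a receptor for Sema4c and Sema4d, had 103 and 78.7 CPM against 81.6 and 66.3 CPM, so that high-fat replicate 1 lay above control replicate 2 (-0.30 ± 0.15, adjusted p = 0.361). Plxnb1, the receptor with the highest known affinity for Sema4d, had between 3 and 8 counts a library, and Plxnb3, a receptor of Sema5a, between 3 and 9.

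**Figure D4:**
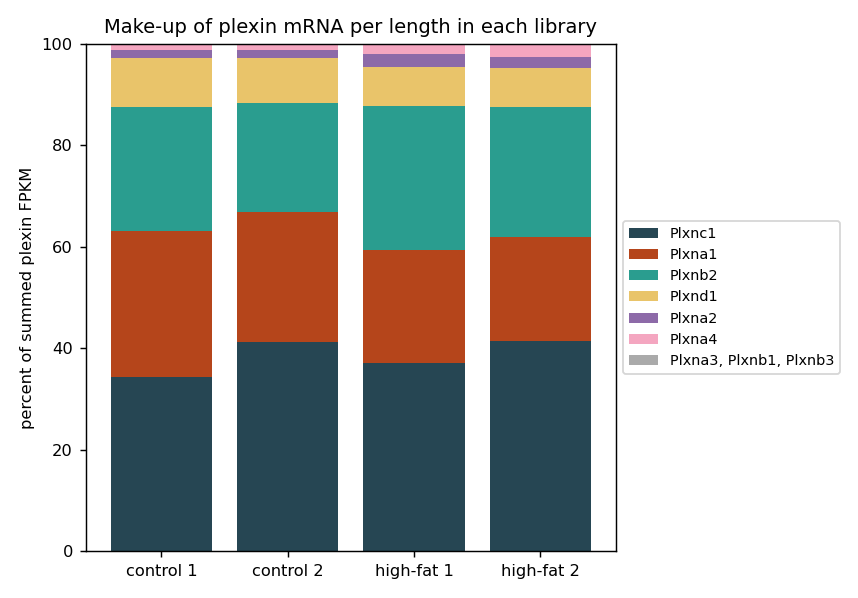
Share of each plexin in the summed plexin level per length (percent of FPKM), with 1 bar per library. Plxna1 took 28.8% and 25.6% with control diet and 22.2% and 20.5% with high-fat diet, while Plxna4 took 1.08% and 0.935% against 1.81% and 2.30%.

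Within the plexin sum the shares of the main genes were as follows by library. Plxnc1 held 34.4% and 41.2% with control diet and 37.1% and 41.3% with high-fat diet, so its share overlapped between the diets. Plxnb2 held 24.4% and 21.6% against 28.5% and 25.7%, and Plxnd1 9.53% and 8.85% against 7.68% and 7.80%. The shares of Plxnb2 were higher and those of Plxnd1 lower in both high-fat libraries.

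For the receptors Nrp1, Plxnc1 and Plxnd1, RefSeq's table for GRCm38.p6 gives a single start each, and the 250 bases before it are shown 5′ to 3′ because these are the most abundant neuropilin, the most abundant plexin and the called plexin that has an entry. The table matched 26 of 32 members. Sema4d has 3 starts there and the counts do not tell which was used, and Plxna1 is not among the matches. Capitals mark matches on either strand to the purine-rich element GAGGAAG, of the kind bound by the myeloid factor PU.1, the GC box GGGCGG and the GC-rich element GGGCGTGG, the last added after reading the sequences. Adjacent matches run together.
Nrp1 chr8:128358823-128359072, plus strand: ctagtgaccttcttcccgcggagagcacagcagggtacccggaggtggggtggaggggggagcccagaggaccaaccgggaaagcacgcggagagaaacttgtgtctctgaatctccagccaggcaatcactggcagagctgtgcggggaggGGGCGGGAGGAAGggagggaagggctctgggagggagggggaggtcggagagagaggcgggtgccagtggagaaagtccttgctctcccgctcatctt
Plxnc1 chr10:94944846-94945095, minus strand: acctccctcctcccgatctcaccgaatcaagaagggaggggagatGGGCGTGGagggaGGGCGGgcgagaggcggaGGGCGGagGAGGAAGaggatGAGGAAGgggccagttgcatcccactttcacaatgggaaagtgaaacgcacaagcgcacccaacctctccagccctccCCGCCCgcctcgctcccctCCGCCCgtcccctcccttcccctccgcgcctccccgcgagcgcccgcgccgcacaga
Plxnd1 chr6:115995006-115995255, minus strand: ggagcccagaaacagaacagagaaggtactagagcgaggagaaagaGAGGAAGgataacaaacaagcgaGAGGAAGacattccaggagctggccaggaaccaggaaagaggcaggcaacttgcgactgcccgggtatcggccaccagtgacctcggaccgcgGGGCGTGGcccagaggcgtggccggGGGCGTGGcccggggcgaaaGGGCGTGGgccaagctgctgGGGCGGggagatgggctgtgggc

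All 3 stretches are rich in G and C, at 64.4% for Nrp1, 68.8% for Plxnc1 and 64.8% for Plxnd1, beside a median of 52.4% over all 32851 starts in the table. GAGGAAG occurred 1 time before Nrp1, 2 times before Plxnc1 and 2 times before Plxnd1, and was found before 10.6% of all starts. GGGCGG occurred 1, 4 and 1 times in the same order, against 32.7% of all starts with a match. GGGCGTGG was found 0, 1 and 3 times, against 4.79% of all starts. The TATA box TATAAA was searched too, had no match in these 3 windows and was found before 12.4% of all starts. These matches describe the letters only.

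Ligands and the receptors they are known to bind can be set side by side per length. Sema4d, at 32.6 ± 1.35 and 18.6 ± 1.60 FPKM with control and high-fat diet, met its receptor Plxnb2 at 13.6 ± 2.55 and 11.1 ± 1.62 FPKM. Sema7a, at 0.333 ± 0.052 and 0.346 ± 0.117 FPKM, met Plxnc1 at 22.1 ± 0.608 and 16.0 ± 0.0682 FPKM. For the pair of Sema4a and Plxnd1 the ligand stood at 2.58 ± 0.162 and 1.68 ± 0.0209 FPKM and the receptor at 5.43 ± 0.829 and 3.16 ± 0.194 FPKM. Sema4d exceeded Plxnb2 by 2.17 and 2.68 times with control diet and by 1.61 and 1.76 times with high-fat diet, and in the other pairs the receptor was the more abundant.

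Other genes of the pathway were read from the same fit, over 76 measured genes in 5 lists of co-receptors, neuropilin growth factors, plexin partners in the cytoplasm, downstream kinases and cytoskeletal proteins, and proteases that process semaphorins. Of these 64 passed the filter, 35 with a log2 fold change below 0 and 29 above, with a median of -0.058 beside -0.0054 over all genes. By edgeR 0 of the 64 passed the threshold, against 13 at an unadjusted p under 0.05 (17% of all genes) and 2 by DESeq2. In 18 of them both high-fat libraries lay below both control libraries and in 12 above, beside 24.9% and 26.1% of all genes.

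Co-receptors and other semaphorin receptors had a median of -0.29 on the log2 scale, over 12 expressed genes. Cd72, a receptor of Sema4d known from B cells, stood at 18.7 ± 3.07 FPKM with control diet and 11.6 ± 1.32 FPKM with high-fat diet (log2 fold change -0.69 ± 0.15, adjusted p = 0.0742), and 313 of its exonic bases are shared with Tesk1. Tyrobp, the adaptor DAP12 that joins plexin A1 with TREM2, stood at 2190 ± 166 and 1607 ± 42.8 FPKM (-0.45 ± 0.11, adjusted p = 0.112). Both had their high-fat libraries below their control libraries. Trem2, named here after its values were seen, stood at 348 ± 2.11 and 292 ± 38.7 FPKM (-0.25).

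Of the growth factors that bind neuropilins, Vegfa was the most abundant at 15.4 ± 2.97 and 13.1 ± 3.56 FPKM with control and high-fat diet, with overlapping libraries (log2 fold change -0.24). Pgf, placental growth factor, had only 7 and 5 counts with control diet and 25 and 22 with high-fat diet. It passed the filter only through the high-fat libraries, so its direction was set by the filter. Its level was 0.090 ± 0.019 and 0.324 ± 0.00509 FPKM (1.82 ± 0.47, adjusted p = 0.118). Tgfb1 stood at 6.82 ± 0.961 and 4.67 ± 0.244 FPKM (-0.55 ± 0.15, adjusted p = 0.139). The 7 expressed genes of this list had a median of -0.16.

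For genes that act inside the cell the medians of the lists lay near 0. The 26 expressed plexin partners had a median log2 fold change of -0.0038, with 13 below and 13 above 0. Mical1, a monooxygenase that takes actin filaments apart downstream of plexins, stood at 5.64 ± 0.684 and 3.79 ± 0.679 FPKM (-0.57 ± 0.16, adjusted p = 0.141). Rras2, a small GTPase of the R-Ras group that plexins act on, stood at 14.5 ± 0.394 and 18.6 ± 0.890 FPKM (0.37 ± 0.10, adjusted p = 0.138), and Rap1b, the most abundant of the list, at 403 ± 9.52 and 445 ± 74.4 FPKM.

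The 13 expressed downstream genes had a median log2 fold change of 0.046. The collapsin response mediator Dpysl2 (-0.32) and the actin-severing cofilin gene Cfl1 (0.22) did not pass. All 6 expressed proteases had values below 0, from -0.37 to -0.032, among them Mmp14 at 29.0 ± 2.06 and 23.1 ± 2.95 FPKM, Pcsk7 (-0.28), which shares exonic bases with Rnf214 and Tagln, and Adam17 (-0.032), the most abundant.

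Markers of other cells were read in the same way. The median on the log2 scale was -0.18 over 9 macrophage markers, led by Lyz2 and Cd68, and -0.93 over 7 neutrophil markers, led by S100a8 and Csf3r. It was -1.44 over 8 dendritic cell markers and 0.11 over 7 eosinophil and mast cell markers, led by the mast cell genes Cpa3 and Mcpt4. Within that list the eosinophil genes Siglecf (-1.32, adjusted p = 0.0684) and Ccr3 (-2.22, adjusted p = 0.139) were lower in both high-fat libraries and missed the threshold, and Prg3 had 0 counts in every library. B cell markers, led by Cd79b and Ms4a1, had 0.83 over 10 genes, T and NK cell markers, led by Gzma and Cd3g, 0.88 over 9, and endothelial markers 0.18 over 3. In the sums of the B cell list and of the T and NK cell list, only high-fat replicate 2 lay above the control libraries (103 and 17.0 FPKM). High-fat replicate 1 lay below both control libraries in the T and NK cell sum (3.51 FPKM). In the B cell sum it was level with control replicate 2 (47.2 FPKM in each). Summed neutrophil markers were 63.9 and 85.0 FPKM with control diet and 59.3 and 55.3 FPKM with high-fat diet. Most of this sum was S100a8, at 43.3 and 62.6 against 48.5 and 44.3 FPKM. Summed dendritic cell markers were 40.3 and 50.5 against 42.4 and 46.9 FPKM, most of it Cd24a. Of the 9 macrophage markers 8 lay below 0 on the log2 scale and 1, Cd68, lay above. In 5 of them both high-fat libraries lay below both control libraries, beside 24.9% of all genes. The macrophage gene Mertk fell, as did Mmp9 and Csf3r of the neutrophil list. In that list Retnlg and Ltf were lower in both high-fat libraries without passing, while S100a8, S100a9 and Cxcr2 overlapped between the diets. Retnlg had 21 and 74 counts with control diet against 2 and 4 with high-fat diet. It passed the filter only through the control libraries, so its direction was set by the filter. Among dendritic cell markers Cd209a fell by 2.34 on the log2 scale (adjusted p = 0.0161 by edgeR). Flt3, Clec9a, Xcr1 and Siglech were lower in both high-fat libraries without passing the threshold. Siglech, with 40 and 27 against 7 and 10 counts, passed the filter only through the control libraries, so its direction was set by the filter. Ccr9 was higher in both high-fat libraries (0.37) without passing, and Zbtb46 and Cd24a overlapped between the diets. The part of these cells in the levels of Sema4d, Plxna1 and Plxnd1 was not tested.

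**Figure D5:**
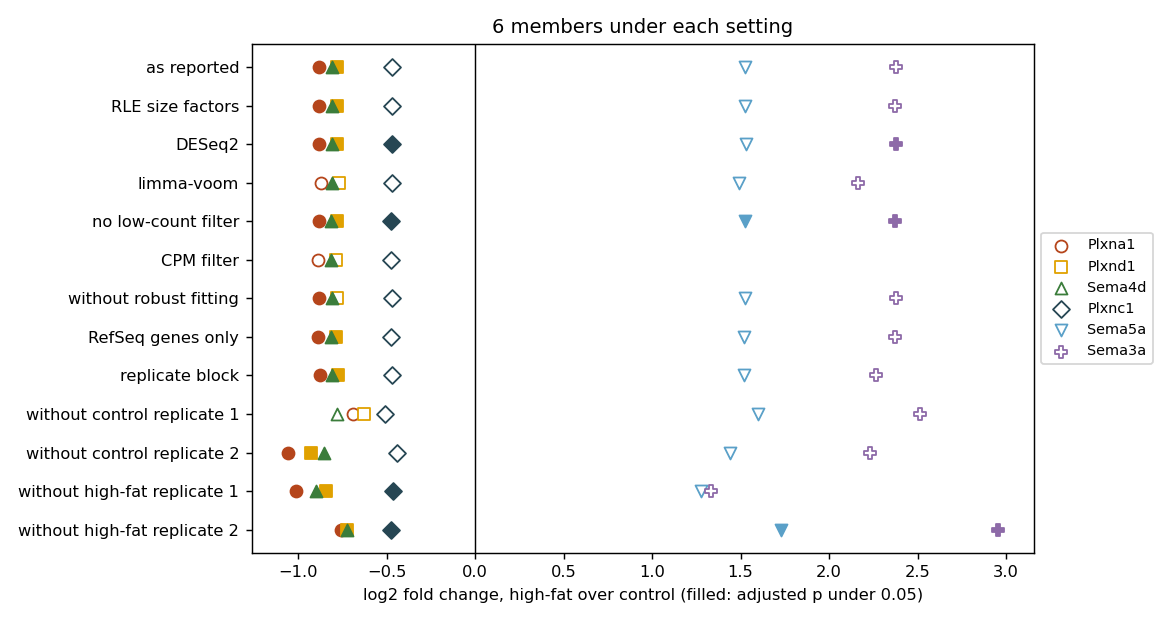
Log2 fold change (high-fat over control) of 6 members as reported and under 12 alternatives; filled symbols passed an adjusted p of 0.05 and a missing symbol means the gene was not tested there. Sema4d, Plxna1, Plxnd1 and Plxnc1 stayed below 0 and Sema3a and Sema5a above 0 in every fit in which they were tested, while calls came and went, and without control replicate 1 no symbol is filled.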

How the data were processed

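Each library has a deposited file of unnormalized counts by gene, and the authors added exon models on mm9. Per the submitters' processing notes the tools were TopHat2 2.0.10, HTSeq and Cufflinks 2.1.1, with no settings or strand rule stated in what was used here. Entries that name no gene were left out: reads placed at several sites were 37.5% to 48.5% of everything counted and reads outside genes 13.5% to 15.0%. Gene totals were 39347347 to 45658551 counts per library.

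The filter was filterByExpr in edgeR 4.0.16 (minimum count 10, minimum total 15; 12747 genes kept), and the test was its robust quasi-likelihood test with TMM factors and diet as the only term (2 residual degrees of freedom). Adjusted p-values are Benjamini-Hochberg over all kept genes, threshold 0.05; SE is the fold change over the square root of F. The script was tested on simulated data. CPM and FPKM use TMM-adjusted totals, and FPKM uses the union of exons. The cutoffs of the filters and the limit for 0 counts use totals without this adjustment. Alternatives used DESeq2 1.42.0, limma 3.58.1 (voom), RLE factors, other filters, a replicate block and leaving out each library. The members and lists were chosen with earlier results of these data known. All members are accounted for; partners named are, per list, the 2 with the smallest p and the most abundant, except 1 that is not reported here. Promoter letters are RefSeq's (GRCm38.p6), and no mm9 coordinate was converted.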

Additional observations from a re-analysis of the deposited data

How the results depend on the processing

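The log2 fold changes of the 20 expressed members were recomputed under up to 12 alternatives each, 236 values in all: 209 kept their direction and side of the threshold, 11 passed where they had not, 8 no longer passed and 8 changed sign. The changes of sign were all from leaving out 1 library. For Sema3c the 4 such fits ran from -0.32 (control replicate 2 out; -0.075 with high-fat replicate 2 out) to 0.76. For Sema4b they ran from -0.41 to 0.011 and for Sema4c from -1.22 to 0.034, both highest with control replicate 1 out. For Sema7a they ran from -0.34 (high-fat replicate 2 out; -0.11 with control replicate 1 out) to 0.37, and for Plxna2 from -0.14 (high-fat replicate 1 out; -0.078 with control replicate 2 out) to 0.17. With 1 library left out the median over ligands ran from -0.32 to 0.31 (high-fat replicate 1 out; 0.034 with control replicate 1 out), and that over pathway genes from -0.12 to 0.029 (control replicate 1 out). The median over ligands was -0.44 with a CPM filter and -0.31 with no low-count filter, and that over pathway genes 0.021 with no low-count filter. All called genes numbered 78, against 366 by DESeq2, 28 by limma-voom, 522 with no low-count filter and 46 with a CPM filter. Called members numbered 3, against 5 by DESeq2, 1 by limma-voom, 7 with no low-count filter and 1 with a CPM filter. Called pathway genes numbered 0, against 2 by DESeq2 and 5 with no low-count filter. Leaving out each library in turn gave 15 to 831 genes, 0 to 6 members and 0 to 5 pathway genes; in these fits the lone library is assumed to vary like the other diet's. With the replicate number as a block 113 genes, 3 members and 1 pathway gene (Cd72) were called; the numbers are not said to pair libraries, and deviations of same-numbered libraries correlated at 0.089 across 12747 genes. The cause of these changes was not tested. The 12 unexpressed members are too shallow here for a comparison.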

Other observations

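Other families that steer axons were sparser in these libraries. They were picked by symbol after the data were seen. Of 12 measured netrin genes and netrin receptor genes 4 passed the filter, led by the receptor gene Neo1 at a mean of 0.570 FPKM. Of 8 ephrin genes 2 passed, with Efnb2 at 1.19 FPKM, and of 14 Eph receptor genes 2 passed, with Epha4 at 0.143 FPKM. Of 7 Slit and Robo genes 0 passed.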
